A study of Mus musculus with 8 samples.

Results

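The insulin-like growth factor (IGF) system of embryonic rib cartilage was followed through 10 genes: the ligand Igf1, the receptors Igf1r and Igf2r, the binding proteins Igfbp2, Igfbp3, Igfbp4, Igfbp5, Igfbp6 and Igfbp7, and the protease Htra1. All probe sets that the platform annotation gives to one of these symbols alone were taken, which were 28 of the 45037 probe sets considered, and 26 of them were bright enough to be tested, at least 1 for each of the 10 genes. A probe set shared by Igf2r and Airn was left out. Transcripts were measured in primary chondrocytes, the cells that make cartilage matrix, released by digestion of rib cages from FVB embryos at E18.5, late in gestation. From each of 4 litters, Hoxd4 transgenic embryos and wild type littermates were gathered by genotype, which gave 4 transgenic and 4 control samples, 1 array each. Litters are named here by replicate number, 1 to 4. Hoxd4 is a homeobox gene that helps to pattern the neck vertebrae, and the comparison asks which transcripts differ when it is overexpressed. The sources used here give neither the promoter that drives the transgene nor the number of embryos per sample.

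IGF1 and IGF2 are small secreted peptides that act on cartilage cells from within the tissue and from the blood. They signal through the tyrosine kinase receptor encoded by Igf1r, while the receptor encoded by Igf2r takes up IGF2 and carries it to lysosomes. In the matrix the peptides are held by IGF binding proteins, which can withhold them from the receptor or store them nearby, and proteases such as HTRA1 cut the binding proteins and release the ligand. The growth plate depends on this system for proliferation and for the enlargement of hypertrophic cells.

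Values are MAS5 signals, a linear measure of probe set brightness, and array medians ran from 100.5 to 115. The brightness of one probe set says nothing about that of another, so levels are compared between arrays and not between genes. All 14 cartilage markers looked for, among them Col2a1, Acan and Sox9, were bright enough to be tested, and their summed signal was 403133 to 428666 in transgenic and 377126 to 420236 in control arrays. The arrays labelled by genotype also differed in sex-linked transcripts: the Y-linked genes Eif2s3y, Uty and Kdm5d were brighter in the transgenic array of all 4 litters, and Xist had signals of 79.8, 3266, 47.2 and 8209 in transgenic and 5778, 9945, 13760.0 and 8098 in control arrays of litters 1 to 4. The part of this imbalance in the results below was not tested. The brighter of the 2 probe sets for Hoxd4, both shared with Hoxd3, had signals of 94.1, 415, 172 and 13 in transgenic and 27.3, 42.6, 4.1 and 256 in control arrays of litters 1 to 4. The dimmer one had 26.8, 11.4, 20 and 24.3 in transgenic and 31.3, 8.9, 17.8 and 48 in control arrays, in the same order. It was lower in the transgenic array in litters 1 and 4. In litter 4 both probe sets were dimmer in the array labelled transgenic, so every direction rests on the label given to that sample.

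None of the 10 IGF system genes passed the test of transgenic against control chondrocytes, and for 25 of 26 probe sets the 2 groups overlapped. The exception was the dimmer tested probe set of Igfbp7. In limma, with p-values adjusted by Benjamini-Hochberg across the 22518 probe sets tested, 0 of 26 member probe sets passed an adjusted p of 0.05, with 0.9997 as their lowest adjusted p, and 0 of 26 had an unadjusted p under 0.05, against 0% and 3.29% of all tested probe sets (1.58% higher and 1.71% lower). By estimate 10 were higher and 16 lower in transgenic arrays, against 48.8% of all tested probe sets lower, with a median log2 fold change of -0.028 for the members and 0.0029 for all tested probe sets. With only the brightest probe set of each gene, 5 of the 10 genes were higher and 5 lower, with a median of 0.013. In 5 of 26 the transgenic array was below the control in all 4 litters and in 1 above it, so 6 kept one direction, against 6.6%, 6.83% and 13.4% of all tested probe sets. Among the 5 were the Igfbp4 probe sets 1437406_x_at, 1423757_x_at and 1421992_a_at, which can read the same transcripts and are not independent. The log2 fold changes, taken on the signal plus a constant of 32, ran from -0.38 to 0.21. For 24 of 26 the 95% interval lay within a 1.5-fold change either way, as it did for 85.5% of all tested probe sets, and for all 26 it lay within a 2-fold change. Each interval covers 1 probe set by itself. With the litter as a block, 3 of 26 had an unadjusted p under 0.05, against 5.54% of all tested probe sets, and 0 passed the adjusted threshold (lowest adjusted p 0.84 among members). Of these 3, 1437406_x_at and 1421992_a_at both read Igfbp4. Without the transgenic array of litter 2 the count at an unadjusted p under 0.05 was 2, and without both arrays of litter 3, with the block, it was 4.

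**Figure D1:**
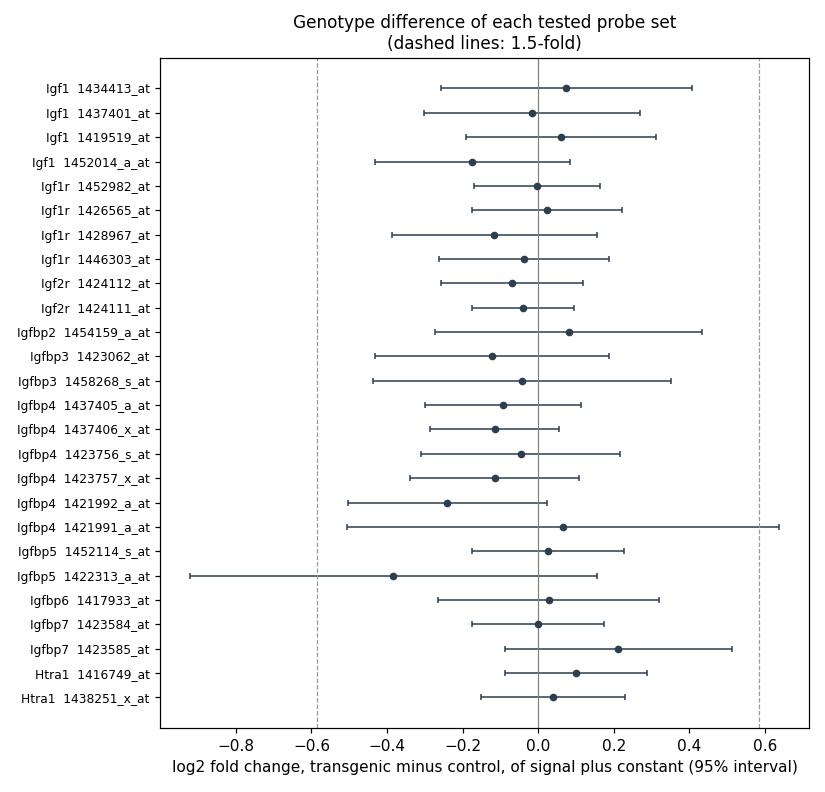
Log2 fold change, transgenic minus control, of the signal plus a constant of 32 for each of the 26 tested probe sets (points) with its 95% interval from limma (bars), grouped by gene. Estimates run from -0.38 to 0.21, every interval crosses 0, and the interval reaches past the dashed 1.5-fold lines for 1 probe set each of Igfbp4 and Igfbp5.

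Igf1, the ligand that drives longitudinal bone growth, was read by 4 probe sets. The brightest (1434413_at) had signals of 3418, 5357, 4869 and 3988 in the transgenic arrays of litters 1, 2, 3 and 4, against 3414, 5691, 3702 and 4014 in the control arrays of the same litters. The groups overlapped, and in both of them the litter 2 array was the highest and the litter 1 array the lowest. The mean signal was 4408 ± 870.1 in transgenic and 4205 ± 1020.4 in control arrays (SD, n = 4 each), and the log2 fold change was 0.074 (95% confidence limits -0.26 to 0.41), with an adjusted p of 0.9997 in limma. The pairs were close in litters 1 and 4, while in litter 3 the transgenic array was clearly the higher. The dimmest Igf1 probe set (1452014_a_at) had signals of 874, 1244, 1215 and 1108 in transgenic and 1072, 1468, 1268 and 1207 in control arrays of litters 1 to 4. In 4 of 4 litters the transgenic array was the lower one, with a log2 fold change of -0.17 (95% confidence limits -0.43 to 0.083) and an unadjusted p of 0.035 with the litter as a block in limma (adjusted p 0.89). The other 2 probe sets of Igf1 lay at -0.017 and 0.061, and the mean of all 4 was -0.014, so the sign of the estimate depended on the probe set.

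**Figure D2:**
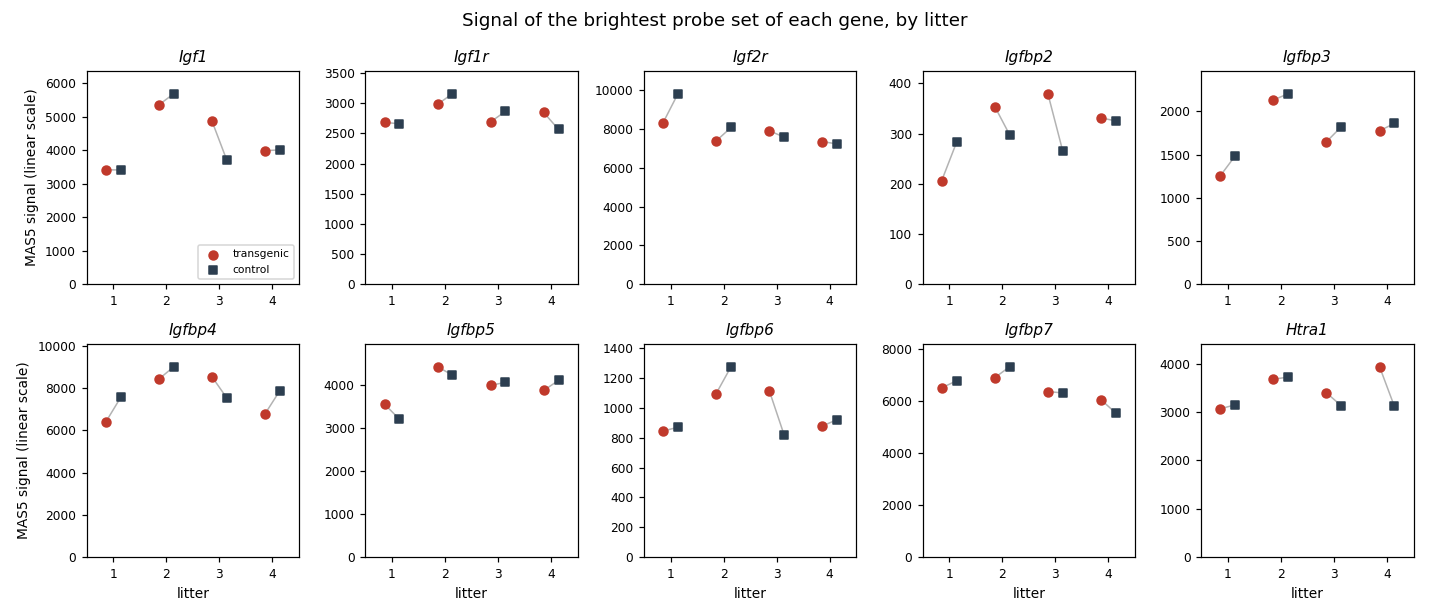
MAS5 signal (linear scale, from 0) of the brightest probe set of each of the 10 genes against litter, with a line joining the transgenic array (red circle, left) and the control array (dark square, right) of a litter. For Igfbp3 the transgenic array lies below the control array in every pair, and for Igf1 the transgenic and control arrays of litter 2 are at 5357 and 5691 and those of litter 1 at 3418 and 3414.

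Igf1r, the signalling receptor, had signals of 2682, 2982, 2691 and 2848 in the transgenic arrays of litters 1, 2, 3 and 4, against 2661, 3159, 2866 and 2566 in the control arrays of the same litters for its brightest probe set (1452982_at). The groups overlapped throughout this narrow range, and the log2 fold change was -0.0031 (95% confidence limits -0.17 to 0.16). The 3 other tested probe sets of Igf1r lay between -0.12 and 0.023. The remaining one (1452108_at) was too dim to be tested, with signals of 16.8, 18.3, 63.2 and 105 in transgenic and 27.3, 31, 92.8 and 77.4 in control arrays of litters 1 to 4. It was brighter in litters 3 and 4 than in litters 1 and 2 in both groups, and no difference between the groups was detected (log2 fold change -0.17, exact two-sided permutation p = 0.66 over all 70 assignments of the labels).

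Igf2r, the scavenger receptor for IGF2, had signals of 8311, 7373, 7893 and 7338 in the transgenic arrays of litters 1, 2, 3 and 4, against 9799.7, 8062, 7567 and 7213 in the control arrays of the same litters at the brighter of its 2 probe sets (1424112_at). It was the only brightest probe set among the 10 genes with its highest litter mean in litter 1, where the control array stood above all others. The log2 fold change was -0.070 (95% confidence limits -0.26 to 0.12). The other probe set of Igf2r (1424111_at) did not follow it over the arrays: litter 4 was the highest and litter 3 the lowest, and its log2 fold change was -0.041 (95% confidence limits -0.18 to 0.095).

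Among the binding proteins, Igfbp3, the main carrier of IGFs in serum and a product of cartilage too, had signals of 1256, 2132, 1649 and 1775 in the transgenic arrays of litters 1, 2, 3 and 4, against 1486, 2205, 1823 and 1861 in the control arrays of the same litters (1423062_at). The transgenic array was the lower one in all 4 litters, by 3.33% in litter 2 and up to 15.5% in litter 1, and the groups overlapped. The mean signal was 1703 ± 361 in transgenic and 1844 ± 294 in control arrays (SD, n = 4 each) and the log2 fold change -0.12 (95% confidence limits -0.43 to 0.19), with an adjusted p of 0.9997 in limma. The second probe set of Igfbp3 (1458268_s_at) had signals of 867, 1506, 1627 and 1323 in transgenic and 1017, 1784, 1365 and 1284 in control arrays of litters 1 to 4, and here the transgenic array was the higher one in litters 3 and 4. Its log2 fold change was -0.043 (95% confidence limits -0.44 to 0.35).

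Igfbp4, a binding protein that mostly inhibits IGF action until pregnancy-associated plasma protein A cuts it, was read by 6 probe sets, and 5 of them were lower in transgenic arrays by estimate. The lowest (1421992_a_at) had signals of 1048, 1639, 1468 and 1358 in the transgenic arrays of litters 1, 2, 3 and 4, against 1516, 1875, 1479 and 1612 in the control arrays of the same litters. The transgenic array was lower in all 4 litters, by 0.741% in litter 3 and up to 30.9% in litter 1. Its mean signal was 1378 ± 249 in transgenic and 1620.2 ± 179 in control arrays (SD, n = 4 each), and its log2 fold change was -0.24 (95% confidence limits -0.50 to 0.023), with an unadjusted p of 0.070 without and 0.014 with the litter as a block in limma (adjusted p 0.9997 and 0.84). The brightest probe set (1437405_a_at) had signals of 6401, 8421, 8524 and 6780.1 in transgenic and 7557, 9003, 7523 and 7877 in control arrays of litters 1 to 4. In litter 3 the transgenic array was the higher, and the log2 fold change was -0.093 (95% confidence limits -0.30 to 0.11). The 3 probe sets 1437406_x_at, 1423756_s_at and 1423757_x_at lay between -0.12 and -0.047, and the dimmest (1421991_a_at) lay at 0.065 (95% confidence limits -0.51 to 0.64). In the first and the last of these 3 the transgenic array was below the control in 4 of 4 litters. The first had an unadjusted p of 0.044 with the litter as a block in limma (adjusted p 0.89). The suffixes _s and _x mark probe sets that can bind more than one transcript.

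Igfbp5, which binds to extracellular matrix and is the binding protein best known from bone, had signals of 3555, 4424, 3993 and 3872 in the transgenic arrays of litters 1, 2, 3 and 4, against 3206, 4227, 4059.6 and 4108 in the control arrays of the same litters at its bright probe set (1452114_s_at). The groups overlapped, with litter 1 lowest and litter 2 highest in both, and the log2 fold change was 0.026 (95% confidence limits -0.17 to 0.23). The dim probe set of Igfbp5 (1422313_a_at) gave the lowest estimate of all members, -0.38 (95% confidence limits -0.92 to 0.15), from signals of 252, 382, 282 and 257 in transgenic and 282, 459.9, 243 and 694 in control arrays of litters 1 to 4. The control array of litter 4 was the highest there, and without both arrays of litter 4 the estimate was -0.07.

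Igfbp6, a binding protein with a preference for IGF2, had signals of 844, 1094, 1114 and 877 in the transgenic arrays of litters 1, 2, 3 and 4, against 869, 1273, 818 and 919.9 in the control arrays of the same litters (1417933_at). The log2 fold change was 0.028 (95% confidence limits -0.27 to 0.32), and the transgenic array was the higher one in litter 3 alone. Igfbp2, an integrin-binding member of the family, had signals of 207, 354, 379 and 331 in the transgenic arrays of litters 1, 2, 3 and 4, against 283, 298, 265 and 325 in the control arrays of the same litters at its one probe set (1454159_a_at). The transgenic arrays spread further than the controls, with litter 1 low, and the log2 fold change was 0.080 (95% confidence limits -0.27 to 0.43).

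Igfbp7, a distant relative with low affinity for IGFs that is abundant in vessel walls and connective tissue, had signals of 6526, 6914, 6381 and 6069.8 in the transgenic arrays of litters 1, 2, 3 and 4, against 6795, 7337, 6328 and 5553 in the control arrays of the same litters at its bright probe set (1423584_at), with a log2 fold change of -0.00088 (95% confidence limits -0.18 to 0.17). The dimmer tested probe set of Igfbp7 (1423585_at) was the 1 of 26 whose groups did not overlap, as was the case for 2.27% of all tested probe sets. Its signals were 195, 232, 209 and 199 in transgenic and 164, 189, 159 and 193 in control arrays of litters 1 to 4, every transgenic array above every control array. The log2 fold change was 0.21 (95% confidence limits -0.088 to 0.51), with an adjusted p of 0.9997 in limma and an exact two-sided permutation p of 0.029, the smallest that 70 assignments allow. That p follows from the lack of overlap and adds nothing to it, and the assignments disregard the litter pairs. Within litters the smallest permutation p possible is 0.125. With the litter as a block the unadjusted p in limma was 0.17. Higher values in the transgenic array of 4 of 4 litters were found for 6.83% of all tested probe sets. The bright probe set, which followed another order over the arrays, did not share this difference. The third probe set of Igfbp7 (1437804_at) was too dim to be tested, with signals between 6.4 and 26.1 in all 8 arrays (exact permutation p = 0.43).

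Htra1, a secreted serine protease that cuts IGF binding proteins and cartilage matrix, had signals of 3067, 3677, 3396 and 3934 in the transgenic arrays of litters 1, 2, 3 and 4, against 3148, 3719.8, 3126 and 3115 in the control arrays of the same litters (1416749_at). The litter 4 transgenic array was the highest, the groups overlapped, and the log2 fold change was 0.10 (95% confidence limits -0.088 to 0.29). The second probe set of Htra1 (1438251_x_at) lay at 0.040 (95% confidence limits -0.15 to 0.23).

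Differences between litters were larger than those between genotypes for most members. The spread of the log2 values over the 8 arrays was divided into the parts between litters, between genotypes and the rest. For the median member probe set 71.6% lay between litters and 3.1% between genotypes, and for the median of all tested probe sets 52.1% and 6.6%. With 3 degrees of freedom between litters and 1 between genotypes, a larger litter part is the usual case: it was the larger for 25 of 26 member probe sets and for 86.8% of all tested ones. The exception was the dimmer tested probe set of Igfbp7, at 29.3% and 56.0%. The whole spread was not unusual, with a median SD over the 8 arrays of 0.18 on the log2 scale for members and 0.17 for all tested probe sets.

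**Figure D3:**
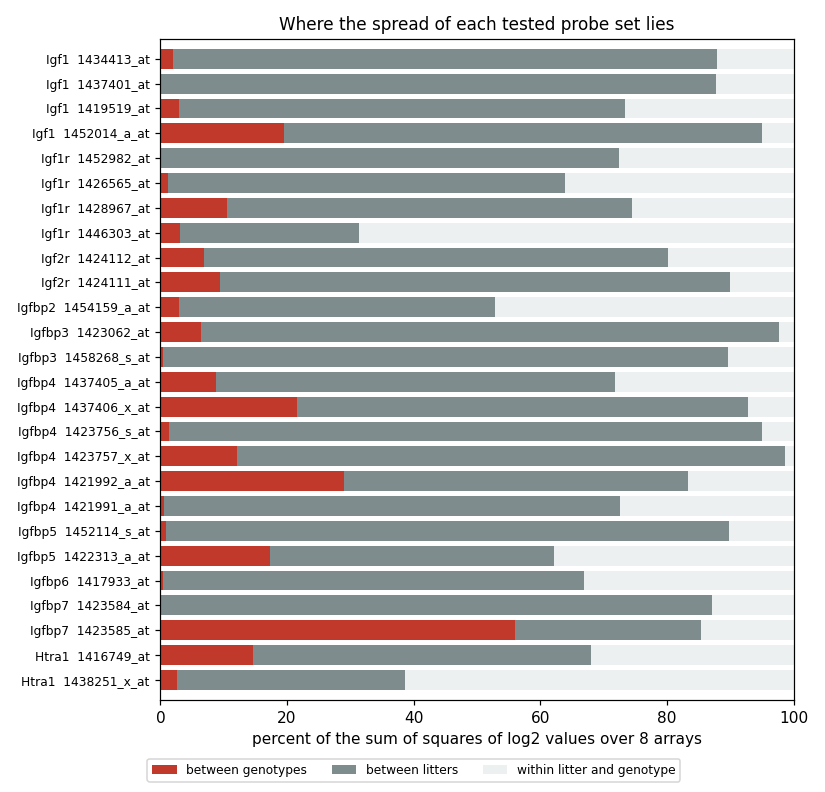
Percent of the sum of squares of the log2 values over 8 arrays that lies between genotypes (red), between litters (grey) and within litter and genotype (pale), for each of the 26 tested probe sets. The grey part is longer than the red part in 25 of 26 bars, and the exception is the Igfbp7 probe set 1423585_at.

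The litters were tested after these values were seen, with limma's F test over the litter terms in the fit that also holds genotype. Of the 26 member probe sets 16 (61.5%), of 7 genes, had an unadjusted p under 0.05, against 14.6% of all tested probe sets. With the brightest probe set of each gene the count was 7 of 10, against 15.1% of all tested genes. At an adjusted p of 0.05 the members called were 2, Igfbp3 (1423062_at, adjusted p 0.040) and Igfbp4 (1423756_s_at, adjusted p 0.047), against 0.484% of all tested probe sets. Igf1 (1434413_at) and the second Igfbp3 probe set came next, with adjusted p of 0.056 and 0.055. Both calls ended without litter 1, without litter 2, with no filter on dim probe sets and with no intensity trend, and the count was 5 without litter 3 and 1 without litter 4. Without litter 1 the count at an unadjusted p under 0.05 was 7, and without litter 2 it was 10. Each litter is 1 pair of arrays, and effects of the litter and of any shared handling cannot be told apart.

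Litter 2 was the highest and litter 1 the lowest for most members. Litter 2 had the highest mean for 19 of 26 member probe sets, of 8 genes, against 28.1% of all tested probe sets, and litter 1 had the lowest for 20 of 26, against 32.1%. Over all tested probe sets the highest mean fell in litters 1, 2, 3 and 4 for 23.6%, 28.1%, 23.1% and 25.1%, and the lowest for 32.1%, 23.5%, 21% and 23.4%. After quantile normalization the counts were 19 and 19. Probe sets of one gene can read the same transcripts, so they are not independent evidence. For the called Igfbp4 probe set (1423756_s_at) the signals were 3731, 5299, 5088 and 4369 in transgenic and 3780.2, 5645, 4795 and 4895 in control arrays of litters 1 to 4. In both groups litter 1 was the lowest and litter 2 the highest, with litters 3 and 4 between them.

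The promoters of 4 members that were low in litter 1 and high in litter 2 are shown to give the sequence just before and after their start sites, 250 and 50 bases, on the coding strand, from RefSeq for GRCm38.p6. They lie at chr10:87860861-87861160 on the plus strand for Igf1, chr15:102143936-102144235 on the plus strand for Igfbp6, chr11:7213874-7214173 on the minus strand for Igfbp3 and chr11:99040994-99041293 on the plus strand for Igfbp4. Capitals mark each TATAAA and CCAAT found on either strand.
Igf1: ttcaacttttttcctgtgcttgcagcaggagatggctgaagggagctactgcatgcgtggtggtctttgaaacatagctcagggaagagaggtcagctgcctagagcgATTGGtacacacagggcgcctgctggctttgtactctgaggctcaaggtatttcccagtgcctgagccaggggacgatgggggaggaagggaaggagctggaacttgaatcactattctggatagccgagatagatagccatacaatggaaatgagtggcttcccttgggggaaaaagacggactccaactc
Igfbp6: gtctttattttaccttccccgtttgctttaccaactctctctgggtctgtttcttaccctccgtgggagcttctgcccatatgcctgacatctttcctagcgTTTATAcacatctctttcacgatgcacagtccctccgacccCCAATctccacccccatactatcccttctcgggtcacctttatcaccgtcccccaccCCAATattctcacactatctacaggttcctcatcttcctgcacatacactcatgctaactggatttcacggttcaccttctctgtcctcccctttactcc
Igfbp3: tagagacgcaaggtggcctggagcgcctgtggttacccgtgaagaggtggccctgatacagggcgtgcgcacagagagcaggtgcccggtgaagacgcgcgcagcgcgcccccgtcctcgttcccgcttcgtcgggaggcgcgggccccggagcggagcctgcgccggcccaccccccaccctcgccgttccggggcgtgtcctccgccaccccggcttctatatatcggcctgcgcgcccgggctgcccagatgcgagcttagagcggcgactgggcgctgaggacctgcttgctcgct
Igfbp4: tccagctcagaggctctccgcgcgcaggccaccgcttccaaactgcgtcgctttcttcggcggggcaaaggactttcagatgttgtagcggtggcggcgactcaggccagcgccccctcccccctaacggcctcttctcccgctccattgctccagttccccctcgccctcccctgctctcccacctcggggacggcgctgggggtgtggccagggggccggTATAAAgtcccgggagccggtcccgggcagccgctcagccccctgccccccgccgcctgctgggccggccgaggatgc

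All 10 genes had at least 1 promoter in the RefSeq table, 11 in all. TATAAA was present in 2 of the 11, those of Igfbp4 and Igfbp6, against 13.6% of 32851 promoters, and CCAAT in 3 of the 11, those of Igf1, Igfbp6 and Htra1, against 37.4%. The GC box GGGCGG was present in 5 of the 11 (Htra1, Igf1r, Igf2r, Igfbp2 and Igfbp7), against 35.7%. The 4 letters TAAT, the core that many homeodomains bind, were in 0 of the 11 on either strand, against 58% of all promoters. Both strands were searched for each motif, and none of the 4 motifs contains another. The 11 windows ranged from 49.7% to 76% in G and C, with 52.7% as the median of all promoters. All lay above that median except those of Igf1 and Igfbp6. TAAT holds neither G nor C, and its share was not set against promoters of like G and C content. The absence says only that these letters are not in these windows.

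Summed signals of markers of other cells in a rib digest also varied over the arrays. Differences of these sums between litters were not tested. The summed signal of 5 tested macrophage markers was 874, 1657, 1945 and 1103 in the transgenic arrays of litters 1, 2, 3 and 4, against 879.6, 2225, 1202 and 971 in the control arrays of the same litters. It was lowest in both arrays of litter 1 and highest in the transgenic array of litter 3 and the control array of litter 2, the same arrays in which Igfbp6 was highest. The 10 fibroblast and perichondrium markers summed to 173178 to 205399 in transgenic and 175358 to 200396 in control arrays, with litter 1 lowest in both. The 11 skeletal muscle markers summed to 23421 to 31813 in transgenic and 24666 to 34072 in control arrays, again with litter 1 the lowest of the transgenic arrays. Litter 4 had the highest sum of the transgenic arrays and the lowest sum of the control arrays for these markers. By the mean log2 level of the list, which is used below, litter 1 was the lowest control array, at 9.80 against 9.95 in litter 4. The 9 of 10 endothelial markers that were tested summed to 2277 to 3021 in transgenic and 2611 to 3257 in control arrays, and 4 of 7 osteoblast markers to 1279.7 to 1565 in transgenic and 1282 to 1769.6 in control arrays. Markers too dim to be tested were Tie1 for endothelium, Cd68, C1qa, C1qc and Ptprc for macrophages, and Hba-a1 and Epb42 for erythroid cells, whose 2 tested markers were too few for a level. In such bulk samples a smaller number of cells of a type and less RNA per cell cannot be told apart. The part of these cells in the differences between litters was not tested.

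**Figure D4:**
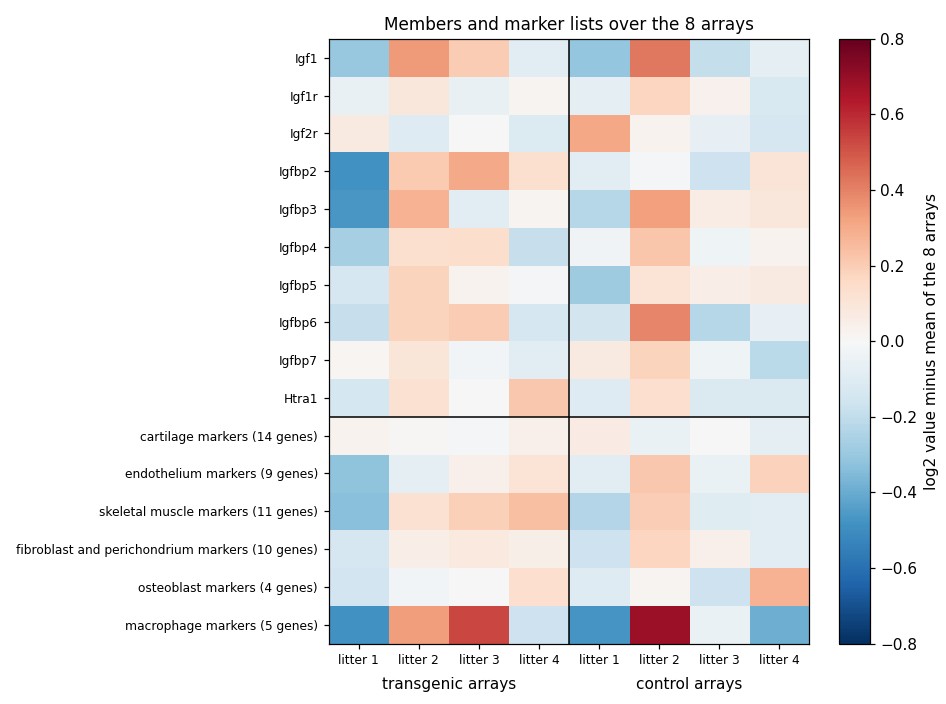
Log2 value minus the mean of the 8 arrays for the brightest probe set of each of the 10 genes (above the line) and for the mean of each marker list (below it), with the transgenic arrays of litters 1 to 4 on the left and the control arrays on the right. Igf1, Igfbp3 and the macrophage and muscle markers are low (blue) in both arrays of litter 1, and Igf1, Igfbp3, Igfbp6 and the macrophage markers are high (red) in both arrays of litter 2.

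Each of the 10 members was set against the mean log2 level of 6 marker lists, 60 relations in all, and 0 passed a Benjamini-Hochberg adjusted p of 0.05, while 13 had an unadjusted exact permutation p under 0.05. The permutations treat the 8 arrays as exchangeable, although 2 of each litter are littermates. Not all of the 13 are given below. For Igf1 and the macrophage markers, Pearson r was 0.92 (exact two-sided permutation p = 0.00268, adjusted 0.15) and Spearman rho 0.86 (exact permutation p = 0.0107, adjusted 0.21) over 8 arrays. Pearson r was 0.88 without the 2 arrays farthest from the median marker level, and 0.89 for deviations from the litter means, which hold only 4 independent differences. Igf1 also went with other lists. For fibroblast and perichondrium markers r was 0.83 and rho 0.90, and for skeletal muscle markers 0.78 and 0.71. Within litters r fell to 0.31 for the fibroblast and perichondrium markers and was 0.62 for the muscle markers. With the list median it was 0.74 and 0.25, in the same order. For Igfbp6 and the macrophage markers, Pearson r was 0.89 (exact two-sided permutation p = 0.0061, adjusted 0.15) and Spearman rho 0.74 (exact permutation p = 0.0458, adjusted 0.24) over 8 arrays. Pearson r was 0.69 without the 2 farthest arrays and 0.89 within litters. With the fibroblast and perichondrium markers Igfbp6 had an r of 0.71 and a rho of 0.79. That r was 0.34 within litters and 0.62 with the list median. Htra1 went with the skeletal muscle markers: Pearson r was 0.88 (exact two-sided permutation p = 0.00742, adjusted 0.15) and Spearman rho 0.88 (exact permutation p = 0.00724, adjusted 0.21) over 8 arrays. Pearson r was 0.90 without the 2 farthest arrays and 0.92 within litters, but with the median in place of the mean of the list it was 0.48. For Igfbp3 and the fibroblast and perichondrium markers, Pearson r was 0.76 (exact two-sided permutation p = 0.0295, adjusted 0.18) and Spearman rho 0.64 (exact permutation p = 0.0962, adjusted 0.25) over 8 arrays. Pearson r was 0.39 without the 2 arrays of litter 1 and -0.28 within litters, so the relation did not hold within litters. No other litter was left out of this relation. For Igf1r and the same markers, r was 0.80 (exact two-sided permutation p = 0.0214, adjusted 0.18). It was 0.83 without the 2 arrays of litter 1, 0.91 with the list median and 0.76 within litters. Against the cartilage markers r ran from -0.67 for Igfbp5 to 0.54 for Igf2r, and neither passed the adjustment.

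The genes whose signals were most like those of the 3 most variable members were looked up among 11012 tested genes, as a description over 8 arrays that share litters. Pearson r to Igf1 was highest for Fbxw8 (0.98), Gnb1 (0.98) and Txnip (0.98). To Igfbp3 it was highest for Adcy7 (0.99), Arap3 (0.98) and Dcaf8 (0.97), and to Igfbp2 for Sbf2 (0.97), Erc1 (0.96) and Cog4 (0.96). These are the highest r among 11012 genes and so are high by selection, which bars setting them against values found without a search. Between the brightest probe set and the others of its gene, r was 0.75 to 0.85 for Igf1 and 0.86 for Igfbp3. For Igfbp4 r was 0.63 to 0.88, for Htra1 0.66 and for Igfbp5 0.47. It was -0.11 to 0.84 for the tested probe sets of Igf1r, -0.0065 for Igf2r and 0.046 for the tested ones of Igfbp7.

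The rest of the pathway was read from 1 probe set per gene, the brightest. Of 28 genes of IGF signalling inside the cell, inhibitors among them, 22 were tested. By estimate 18 were higher and 4 lower in transgenic arrays, against 5469 higher and 5544 lower of all 11013 tested genes. Their median log2 fold change was 0.050, against -0.00082 for all tested genes. The cartilage markers leaned the same way, with 12 higher and 2 lower and a median of 0.051. Of the 22, 1 had an unadjusted p under 0.05, Pdpk1, the kinase that activates AKT, against 1.32% of all tested genes in that direction. With the litter as a block the count was 2, Pdpk1 and Pik3ca, both higher, against 2.31% of all tested genes in that direction. The adjusted threshold in limma was passed by 0. The signals of Pdpk1 were 2334, 2309, 2272 and 2416 in transgenic and 2063, 1982, 2139 and 2153 in control arrays of litters 1 to 4, with the transgenic array above the control in 4 of 4 litters, with a log2 fold change of 0.16 (95% confidence limits 0.018 to 0.30) and an adjusted p of 0.9997 in limma. Pik3ca, the catalytic subunit of the lipid kinase upstream of it, lay at 0.16 (95% confidence limits -0.0098 to 0.33), also higher in 4 of 4 litters, and Pik3r2, a regulatory subunit of that kinase, at 0.14 (95% confidence limits -0.088 to 0.37).

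Of 10 other ligands, receptors and carriers 5 were tested, and 2 were higher and 3 lower, with Igf2, the fetal ligand, at 0.060 (95% confidence limits -0.070 to 0.19), Insr, the insulin receptor, at -0.068 (95% confidence limits -0.25 to 0.12) and Ins2, which encodes insulin, at -0.29 (95% confidence limits -1.02 to 0.45) from dim signals. Igfbp1, Igfals, Insrr and Igfbpl1 were too dim to be tested. Of 11 proteases of binding proteins and their regulators 8 were tested, and 1 was higher and 7 lower, with a median log2 fold change of -0.049. Among all 11013 tested genes 5469 were higher and 5544 lower. Pappa2, which cuts Igfbp5, lay at -0.21 (95% confidence limits -0.54 to 0.12), lower in 4 of 4 litters, Stc1, a stanniocalcin that inhibits such proteases, at -0.20 (95% confidence limits -0.65 to 0.26), and Ctsd, a lysosomal protease, at -0.066 (95% confidence limits -0.25 to 0.12). All 6 genes of the growth hormone arm were tested, and 2 were higher and 4 lower, with Socs2, a feedback inhibitor, at -0.13 (95% confidence limits -0.34 to 0.084), Stat5a, a transcription factor, at -0.091 (95% confidence limits -0.29 to 0.11) and Ghr, the growth hormone receptor, at 0.019 (95% confidence limits -0.14 to 0.18). No gene of these 3 lists had an unadjusted p under 0.05, with or without the block.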

How the data were processed

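One-colour biotin-labelled Affymetrix arrays were hybridised with total RNA of 8 rib chondrocyte samples, 4 transgenic and 4 control, and the authors deposited 1 intensity per probe set, computed by MAS5 (submitters' processing notes). The sources used here give no version, detection calls or scanner settings. The deposited intensities have a mean of 500.003 on each array without the top and bottom 2%, so the arrays share a scale. MAS5 subtracts mismatch signal, which leaves dim probe sets noisy, and depth is not defined: the number of arrays, 4 per group, limits the precision.

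Without the 64 manufacturer's controls, 45037 probe sets were turned to log2(signal + 32), 32 being close to the arrays' typical lower quartile, which shrinks fold changes of dim probe sets. Those with a mean over all 8 arrays above the median, 22518, entered limma 3.58.1 (R 4.3.3; lmFit, then eBayes with a trend on mean intensity) for transgenic minus control, with Benjamini-Hochberg adjustment over all of them. Single values were tested by exact permutation. The fits were tested on simulated data. Figures used matplotlib 3.10.9.

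Symbols came from GEO's platform annotation and were looked up by gene identifier in RefSeq (GRCm38.p6), which changed 0: 34945 probe sets had 1 symbol, 932 several and 9160 were unnamed here. The platform's coordinates were not used. Named were every probe set of the 10 members, up to 3 genes of each pathway list by smallest p with all under 0.05, and the 3 genes most like each of the 3 members with the largest SD. The members and lists were chosen with earlier results of these data known.

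Labels give the same number to a transgenic and a control sample of one litter, so these are paired by litter. Deviations from the group means correlated by 0.28, 0.17, 0.04 and 0.14 within litters 1 to 4, with a mean of 0.16 against -0.05 between litters. The labels name no test, and the chosen fit had no block. A blocked fit by litter was one alternative, beside other constants, filters, normalization, spread models and left-out arrays. The samples are separate pools of embryos per the labels.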

Additional observations from a re-analysis of the deposited data

Results flagged for a closer look

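Of 56 groups of 4 arrays (28 member probe sets, 2 genotypes), 5 held an array that stood apart from the other 3 by Dixon's test at its 95% critical value, where chance flags about 1 group in 20. In transgenic arrays the litter 2 signal of Igfbp4 (1437406_x_at) was 8522, with the next at 6934, and the litter 4 signal of the dim Igfbp7 probe set (1437804_at) was 6.4, with the next at 23.7. In control arrays the litter 1 signal of Igfbp5 (1452114_s_at) was 3206, with the next at 4059.6, the litter 2 signal of Htra1 (1416749_at) was 3719.8, with the next at 3148, and the litter 2 signal of Igf1r (1446303_at) was 510.1, with the next at 569.8. The litter 2 values of Igfbp4 and Htra1 were the highest of their groups, as for most members, while that of this Igf1r probe set was the lowest.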

How the results depend on the processing

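Under the alternatives run (the constant halved or doubled, no filter, the upper quartile filter, quantile normalization, no intensity trend, the litter as a block, each array or litter left out), 0 probe sets passed the adjusted threshold for genotype in limma, except 1 without transgenic replicate 4 and 4 without both arrays of litter 4 (range 0 to 4), none of them a member. The count at an unadjusted p under 0.05, 740 as reported, was 1844 with no filter, 305 above the upper quartile, 1248 with the litter as a fixed replicate block and 1268 as a random block, and 664 to 1718 with replicates left out. The first 2 test more and fewer probe sets by construction. The count of member probe sets at this limit, 0 as reported, was 3 with the fixed replicate block (Igf1 1452014_a_at and Igfbp4 1437406_x_at and 1421992_a_at), 1 with the random block, 1 with no intensity trend and 0 to 4 with replicates left out. Among the other lists the replicate block brought Pik3ca, Ckm, Slc4a1 and Alas2 under an unadjusted p of 0.05 and took no gene over it, and no listed gene passed the adjusted threshold in limma with or without it. The 2 dim member probe sets and the 60 relations to marker lists gave 0 calls under each alternative run for them. The count of members that differed between litters, a test added after seeing the data, was 2 at the adjusted threshold and 0 with no filter or no intensity trend (0 to 5 without a litter), and 16 at an unadjusted p under 0.05 and 7 with no intensity trend (7 to 17 without a litter). The cause of the other changes was not tested. With the mean of all tested probe sets of a gene in place of the brightest, the log2 fold change turned to -0.014 for Igf1, -0.18 for Igfbp5 and 0.11 for Igfbp7. No other scaling, constant, filter or block turned a member's sign. With 1 array or litter left out the sign of uncalled log2 fold changes near 0 turned for 16 of 26 probe sets, with these ranges. For Igf1 it was -0.032 to 0.23 (1434413_at), -0.11 to 0.12 (1437401_at) and -0.020 to 0.16 (1419519_at). For Igf1r it was -0.054 to 0.054 (1452982_at), -0.045 to 0.085 (1426565_at) and -0.12 to 0.042 (1446303_at). For Igf2r it was -0.13 to 0.021 (1424112_at). For Igfbp2 it was -0.049 to 0.25 (1454159_a_at). For Igfbp3 it was -0.24 to 0.012 (1423062_at) and -0.17 to 0.14 (1458268_s_at). For Igfbp4 it was -0.15 to 0.051 (1423756_s_at) and -0.13 to 0.36 (1421991_a_at). For Igfbp5 it was -0.065 to 0.076 (1452114_s_at). For Igfbp6 it was -0.11 to 0.16 (1417933_at). For Igfbp7 it was -0.074 to 0.059 (1423584_at). For Htra1 it was -0.060 to 0.11 (1438251_x_at).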
